A study of Mus musculus with 24 samples.

Results

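The set comprised 116 named protein-coding genes of mouse 32D cells that were close to unread before actinomycin D and were read after 9 h of it. They were chosen on wild-type (WT) libraries only, from 55414 gene identifiers. A member had under 0.5 CPM (a gene's count per 1000000 gene counts of its library) at WT 0 h, at least 5 CPM at WT 9 h, and a genomic span under 200000 bases, as means of 2 libraries. Histone genes and predicted-gene symbols were left out. Of 19637 named protein-coding genes, 8476 met the silent level and the span limit at WT 0 h, and 7486 of these were still under 0.5 CPM at WT 9 h. Because WT 0 h and WT 9 h values chose the members, their rise in WT, and their difference from WT at 0 h and 9 h, are described here without a test. The clones and the WT 3 h and 6 h libraries did not enter the choice.

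32D is an interleukin-3 dependent cell line from mouse bone marrow. The groups were KO1 and KO2, a pair of clones labelled Nat10+/-, and WT cells. Libraries were made from each after 0, 3, 6 and 9 h in 0.05 µg/ml actinomycin D, in medium with 10% serum and interleukin-3 at 10 ng/ml, with 2 libraries of polyadenylated RNA per group and 24 libraries in all. The study asked how long mRNAs last when Nat10, an RNA acetyltransferase that makes N4-acetylcytidine, is reduced. Each KO group is 1 clone, so a difference found in 1 of them cannot be told apart from a difference between clones. The labels speak of biological replicates without naming separate cultures, so the p-values reflect only how far these libraries spread, which may be technical.

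Actinomycin D binds DNA and stops moving RNA polymerases. At low concentrations it is known to act first on the synthesis of ribosomal RNA in the nucleolus, a stress that stabilises p53, while messenger RNA synthesis is more resistant. A CPM value is a share of a library, so a gene gains share when it is transcribed and also when other transcripts are lost. In bulk RNA, more cells that carry a transcript and more of it per cell cannot be told apart either. The members include adhesion proteins, transporters, receptors, transcription factors, germ-cell genes, metabolic enzymes and genes of blood and immune cells.

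Depth was 15361601 to 17338939 gene counts per library, so 0.5 CPM was about 7.68 counts in the library with the lowest total. At 0 h Nat10 had 99.7 ± 7.0 CPM in KO1 and 94.5 ± 2.74 CPM in KO2, against 109 ± 1.41 CPM in WT (SD, n = 2 each). The part of Nat10 that was disrupted is not given in the sources used here, so these counts do not check the labels. Among 16 markers of myeloid progenitors, Ptprc, Csf2rb and Gata2 were read at 193 CPM or more in every 0 h group, while Kit had 0 CPM in both clones at each time. All 16 together summed to 1801 CPM in KO1, 1776 CPM in KO2 and 1907 CPM in WT at 0 h, and 15 of them could be tested. Between 0 and 9 h 4 of the 15 were higher and 9 lower in KO1 (42.2% and 38.3% of all genes), and 4 and 8 in KO2 (42% and 38.8%). At 6 h 2 were higher and 4 lower in KO1 than in WT (18.4% and 17.4%), and 1 and 9 in KO2 (17.5% and 16.8%). In KO2 0 were higher and 6 lower than in KO1 at 9 h (4.89% and 7.54%). The other markers are not given singly here. Spike-in RNA gave 3742 to 5780 counts in KO1 libraries and 5339 to 13774 in KO2 libraries, against 120 to 257 in WT libraries. The labels describe equal added amounts. Libraries were therefore scaled by TMM (trimmed mean of M-values over genes), and directions between a clone and WT given below turn to lower for all 116 members at 6 h on the spike-in scale, where the median of all genes falls by 4.74 (KO1) and 5.87 (KO2) on the log2 scale at 6 h. Relative to that shift, Nectin4 still lay above the median gene, at -3.24 in KO1 and -4.66 in KO2.

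Promoter sequences matched by symbol in RefSeq's table for build GRCm38.p6 for 91 of the 116 members, in 123 promoters of 300 bases, running from 250 before to 50 after the start. Those of 6 members are shown, because these genes cover much of the range of timing described below. Slc29a4 and Dpysl5 were among the late ones, Nectin4 had the highest level, Tlcd2 peaked at 6 h and Nfe2l3 was the earliest. Capitals mark matches, on either strand, to the TATA box TATAAA, the CCAAT box CCAAT, the Sp1 GC box GGGCGG, the E box CACGTG, the AP-1 site TGACTCA, the CRE TGACGTCA, the E2F site GCGGGAA and, by name, a p53 core pair. Neighbouring GC boxes can overlap.
Nectin4 (chr1:171369923-171370222, plus strand): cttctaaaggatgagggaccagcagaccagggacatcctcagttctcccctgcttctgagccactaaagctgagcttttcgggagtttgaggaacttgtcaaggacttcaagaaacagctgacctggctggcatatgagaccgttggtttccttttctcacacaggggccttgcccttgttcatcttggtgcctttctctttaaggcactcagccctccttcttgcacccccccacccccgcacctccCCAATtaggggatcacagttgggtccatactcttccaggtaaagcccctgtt
Slc29a4 (chr5:142701851-142702150, plus strand): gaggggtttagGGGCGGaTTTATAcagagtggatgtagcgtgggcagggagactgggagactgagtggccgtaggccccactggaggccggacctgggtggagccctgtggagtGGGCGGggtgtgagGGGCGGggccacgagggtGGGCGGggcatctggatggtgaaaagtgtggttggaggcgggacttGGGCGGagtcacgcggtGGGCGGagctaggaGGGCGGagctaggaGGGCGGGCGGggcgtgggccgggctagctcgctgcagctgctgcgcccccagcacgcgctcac
Dpysl5 (chr5:30711314-30711613, plus strand): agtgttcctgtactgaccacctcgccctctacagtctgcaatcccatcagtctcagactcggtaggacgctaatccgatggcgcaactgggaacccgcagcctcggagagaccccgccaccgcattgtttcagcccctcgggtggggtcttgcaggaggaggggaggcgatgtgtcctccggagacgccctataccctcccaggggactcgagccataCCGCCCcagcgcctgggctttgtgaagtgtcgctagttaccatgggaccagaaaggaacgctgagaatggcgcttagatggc
Zscan10 (chr17:23600576-23600875, plus strand): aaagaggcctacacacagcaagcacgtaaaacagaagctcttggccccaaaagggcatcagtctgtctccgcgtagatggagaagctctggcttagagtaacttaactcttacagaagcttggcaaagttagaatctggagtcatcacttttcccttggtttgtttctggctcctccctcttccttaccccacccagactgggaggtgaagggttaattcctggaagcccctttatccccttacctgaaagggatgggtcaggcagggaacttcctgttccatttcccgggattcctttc
Tlcd2 (chr11:75467800-75468099, plus strand): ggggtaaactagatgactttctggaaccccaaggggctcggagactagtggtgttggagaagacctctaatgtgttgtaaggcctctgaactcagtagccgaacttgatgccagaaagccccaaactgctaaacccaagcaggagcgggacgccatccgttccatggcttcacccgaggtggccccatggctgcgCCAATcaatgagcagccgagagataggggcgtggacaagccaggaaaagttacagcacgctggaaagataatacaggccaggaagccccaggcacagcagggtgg
Nfe2l3 (chr6:51432419-51432718, plus strand): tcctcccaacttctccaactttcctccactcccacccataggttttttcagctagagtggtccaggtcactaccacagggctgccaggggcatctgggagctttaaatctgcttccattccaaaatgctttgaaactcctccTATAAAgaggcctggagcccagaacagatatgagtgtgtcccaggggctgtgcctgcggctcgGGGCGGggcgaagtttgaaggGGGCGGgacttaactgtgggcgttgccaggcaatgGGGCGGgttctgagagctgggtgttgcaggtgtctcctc
Zscan10 had no match, and Nectin4 and Tlcd2 each held 1 CCAAT box. Slc29a4 held a row of GC boxes, and its match to the TATA box letters lay near the upstream end of the window, far from the start. No single motif was shared by the 6.

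Over all 123 member promoters, the GC box stood in 41.5%, against 28.5% of 6536 promoters of the genes that stayed silent and 49.4% of 18936 promoters of all named protein-coding genes. The TATA box stood in 11.4% of member promoters, 21.2% of still-silent ones and 11.9% of all. The CCAAT box showed little spread, at 39.8%, 38.5% and 37.8% in the same order. The other motifs stood in under 5% of member promoters, the p53 core pair in 0.813%, against 1.25% of still-silent and 0.650% of all promoters. Median GC content was 56.3% in members, 50.3% in still-silent genes and 57.3% in all. The median number of CpG dinucleotides was 8 in members, 4 in still-silent genes and 15 in all, so member promoters lay between those sets in CpG and near all genes in GC. These are descriptions of letters in a window, without a test.

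Every member was higher at 9 h than at 0 h in both clones, the libraries that the rule did not use. The median member had 6.55 CPM in KO1 and 7.0 CPM in KO2 at 9 h, against 0.158 CPM in KO1 and 0.167 CPM in KO2 at 0 h. By edgeR's quasi-likelihood test across 16167 genes, with Benjamini-Hochberg adjusted p under 0.05, 116 of 116 were called higher in KO1, where 42.2% of all genes tested were higher and 38.3% lower, and 116 of 116 in KO2, where 42% were higher and 38.8% lower. The median log2 fold change was 5.33 in KO1 and 5.67 in KO2, against 0.12 and 0.09 over all genes. With the 15 KO1 and 18 KO2 members that had 0 counts at 0 h set at a floor of 3 counts over the group, the median fold was 45.8 in KO1 and 52.0 in KO2. On the spike-in scale the median log2 rise was 5.41 in KO1 and 4.54 in KO2, so the median rise within a clone kept its direction, while Trim71 in KO2 was no longer called there (log2 0.15). Without KO2 0 h replicate 1, Trim71 was no longer called in KO2. All members passed the filter on low counts, as the rule's level at WT 9 h makes them do.

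**Figure D1:**
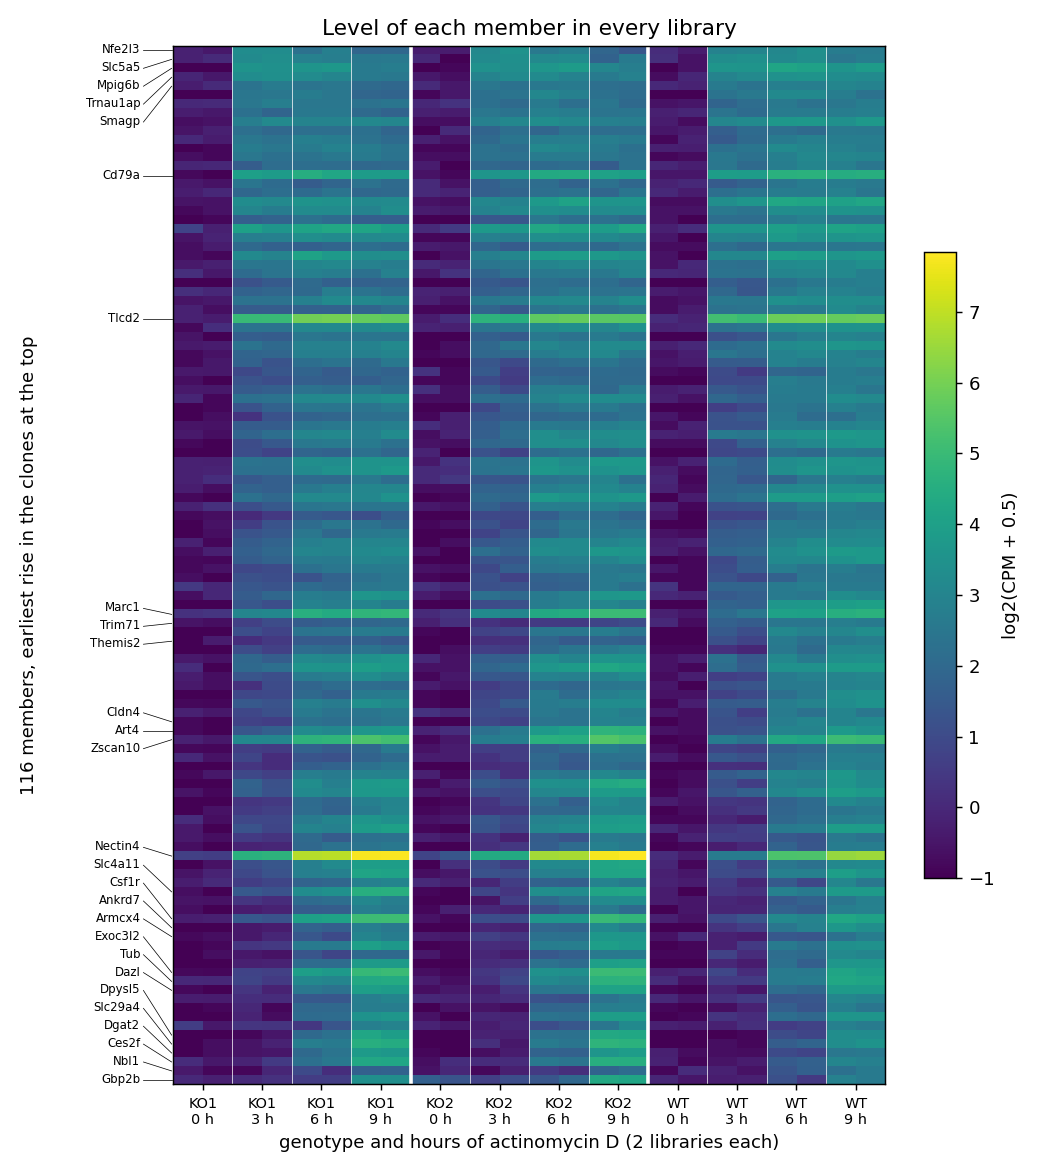
Level of each of the 116 members in all 24 libraries, as log2(CPM + 0.5), by genotype and hours of actinomycin D. Rows run from the members that gained earliest in the clones (Nfe2l3) to the latest (Gbp2b), and the 0 h columns are dark in all genotypes.

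Summed over members, the level was 24.3, 395, 874 and 1236 CPM in KO1 at 0, 3, 6 and 9 h, 27.5, 372, 899 and 1360 CPM in KO2, and 23.2, 370, 864 and 1192 CPM in WT. The sums were thus close between genotypes at each time, with KO2 above the others at 9 h. Nectin4 alone gave 219 CPM of the 9 h sum in KO1, 221 CPM in KO2 and 90.2 CPM in WT. The median member at 9 h had 6.55 CPM in KO1, 7.0 CPM in KO2 and 7.79 CPM in WT, so it was highest in WT, whose 9 h level the rule used. At 9 h 78 members in KO1 and 86 in KO2 reached the 5 CPM that all 116 had in WT by the rule. The threshold cut through a continuous range. Tlcd2 (0.491 CPM) and Plscr2 (0.491 CPM) were just inside the WT 0 h level, with Gbp2 (0.519 CPM) and Evpl (0.520 CPM) just outside. Nbl1 (5.03 CPM) and Dixdc1 (5.06 CPM) were just inside the WT 9 h level, and Slc3a1 (4.97 CPM) and Mfrp (4.84 CPM) just outside. Cux2 and Rgs20, of 193737 and 160710 bases, were the longest members, and Cdc42bpa and Camk4, of 205132 and 256298 bases, met the levels beyond the span limit.

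Nectin4 encodes a nectin, an immunoglobulin-like protein of epithelial cell junctions, and lies on chr1:171197667-171216166 of GRCm39. Its 0, 3, 6 and 9 h libraries held 1.09 and 1.03, 23.8 and 25.7, 115 and 121, and 218 and 220 CPM in KO1. In KO2 they held 1.28 and 2.06, 20.1 and 20.4, 97.9 and 103, and 213 and 229 CPM. In WT they held 0.578 and 0.288, 5.95 and 5.89, 39.5 and 41.1, and 87.6 and 92.7 CPM. Both clones lay above WT in every library of every time, with no overlap, and the level still climbed between 6 and 9 h. At 0 h WT had 10 and 5 counts, and the rule asked for a low WT level, which by itself favours clones above WT there. The WT 9 h level also entered the rule. Per kilobase of exon, Nectin4 stood at 58.3 CPM in KO1, 59.1 CPM in KO2 and 24.1 CPM in WT at 9 h, and ranked first among members in the clones. At 6 h it was higher than in WT by 1.48 ± 0.06 on the log2 scale in KO1 (SE, edgeR adjusted p = 2.7e-44) and by 1.21 ± 0.06 in KO2 (edgeR adjusted p = 5.7e-37). At 3 h the log2 differences were 2.01 ± 0.11 in KO1 and 1.71 ± 0.11 in KO2, both called. KO2 was below KO1 by a log2 of -0.27 ± 0.05 at 6 h (edgeR adjusted p = 4.9e-06), and at 9 h the difference was -0.01 ± 0.04 (edgeR adjusted p = 0.95).

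Zscan10, a zinc finger transcription factor known from pluripotent cells, lies on chr17:23819830-23829993. It had 6 and 4 counts in KO1, 1 and 4 in KO2 and 0 and 1 in WT at 0 h. At 3, 6 and 9 h KO1 libraries held 7.99 and 7.74, 26.0 and 27.2, and 40.2 and 35.5 CPM, and KO2 libraries 5.99 and 6.56, 24.2 and 22.7, and 44.2 and 38.4 CPM. WT libraries held 6.13 and 4.38, 19.6 and 18.1, and 33.0 and 30.3 CPM at these times. The clones did not overlap with WT at 6 h or 9 h, and the gap was small beside that of Nectin4. At 6 h the log2 difference from WT was 0.43 ± 0.10 in KO1 (SE, edgeR adjusted p = 0.00039), which was called, and 0.21 ± 0.10 in KO2 (edgeR adjusted p = 0.11), which was not. With summed gene counts as the scale the KO2 difference was 0.31 and was called.

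Slc29a4 encodes a transporter of monoamines and nucleosides in the plasma membrane and lies on chr5:142678267-142708245. It had 0 and 2 counts in KO1 and 0 counts in every KO2 and WT library at 0 h. At 3, 6 and 9 h KO1 libraries held 0.183 and 0.408, 6.41 and 5.74, and 22.8 and 21.4 CPM. KO2 libraries held 0.651 and 0.239, 5.94 and 4.93, and 26.6 and 24.7 CPM, and WT libraries 0.124 and 0.0583, 2.55 and 3.14, and 9.63 and 11.2 CPM. It stayed near 0 until 3 h in all genotypes, then climbed, and both clones lay above WT at 6 h and 9 h. At 9 h KO2 was at least 282-fold above its 0 h group, taken at 3 counts over the group. The 6 h log2 difference from WT was 1.02 ± 0.21 in KO1 (SE, edgeR adjusted p = 2.4e-05) and 0.83 ± 0.21 in KO2 (edgeR adjusted p = 0.00079).

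**Figure D2:**
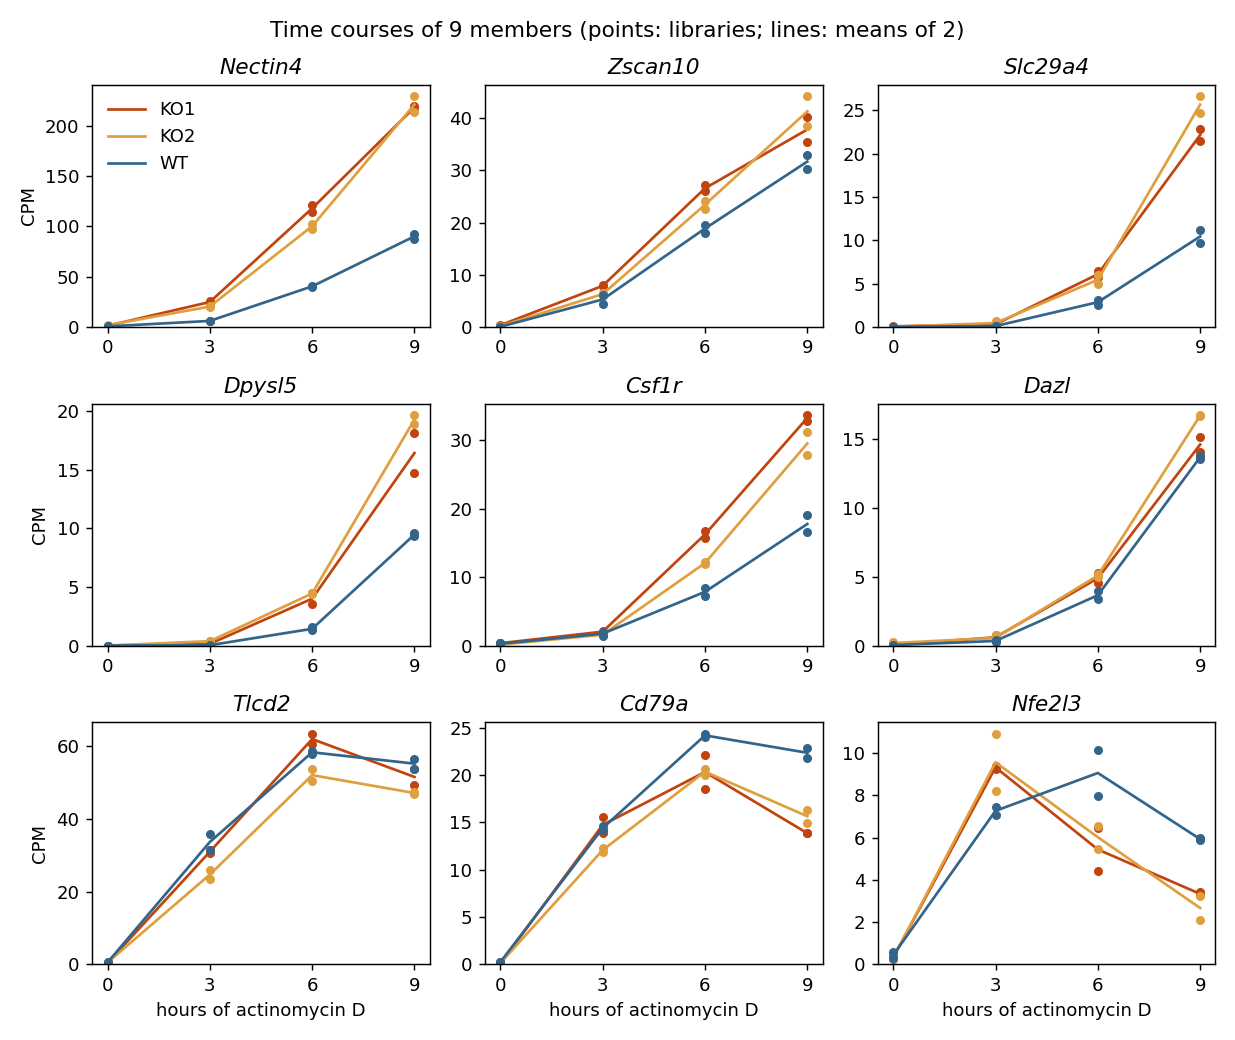
CPM of 9 members against hours of actinomycin D in KO1, KO2 and WT, with a point per library and a line through the mean of 2. Nectin4, Slc29a4, Dpysl5 and Csf1r were higher in both clones than in WT at 6 h (lower on the spike-in scale) and still climbing at 9 h, whereas Tlcd2, Cd79a and Nfe2l3 had turned down by 9 h in the clones.

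Members differed in when they appeared. Between 0 and 3 h, 109 of 116 were called higher in KO1 (37.9% of all genes) and 105 in KO2 (37.6%), with 104 in both. The members not called higher in either clone were Ces2f, Dusp13, Gbp2b, Il6ra, Ltf and Nbl1, and Gbp2b was lower in KO2 at 3 h (log2 -0.75 ± 0.30, edgeR adjusted p = 0.022). Between 3 and 6 h, 88 were called higher and 4 lower in KO1 (25.5% and 28.7% of all genes), and 96 higher and 1 lower in KO2 (26.9% and 29.4%). In WT 104 were called higher and 0 lower between 3 and 6 h (27.6% and 26.9%); these libraries are not those of the rule, but a gene that WT gained by 9 h had to gain at some step.

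Between 6 and 9 h the set divided, on the TMM scale. In KO1 41 members were called higher and 13 lower (19.8% and 19.9% of all genes), and in KO2 43 higher and 15 lower (20% and 21.5%). Both clones called 38 higher and 10 lower, and 0 in opposite directions. The members lower in both were Cd79a, Crip2, Crip3, Dhdh, Ly6g6c, Mpig6b, Nfe2l3, Smagp, Tlcd2 and Trnau1ap. The share of all genes called alike in both clones cannot exceed the shares of either clone and is not given here. Without either KO2 6 h library the count lower in KO2 was 9. On the spike-in scale the lower calls were 1 in KO1 and 7 in KO2, and 74 members were higher in KO1. The median log2 change of all genes on that scale was 0.56 in KO1 and 0.01 in KO2. The division thus held on the TMM scale and was nearly lost in KO1 on the other. On group means, the level was highest at 9 h for 83 members in KO1, 81 in KO2 and 96 in WT, and at 6 h for 27, 32 and 19. The rule asks for a high WT level at 9 h, which by itself favours a late peak in WT.

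**Figure D3:**
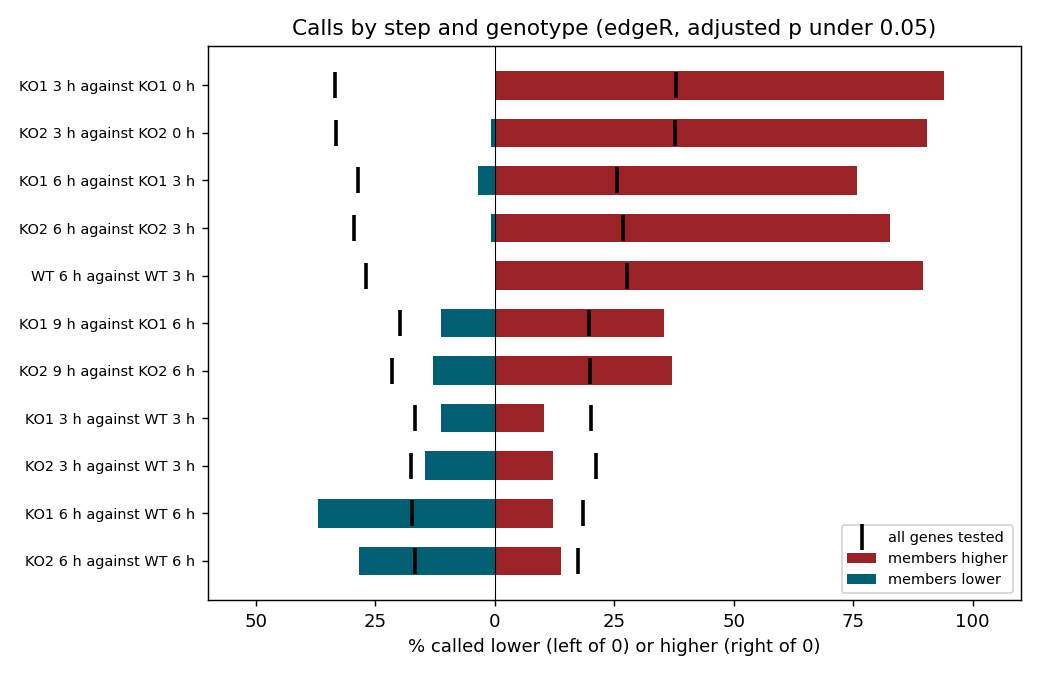
Percent of members called higher (right of 0) or lower (left of 0) at each tested step and between each clone and WT, with black marks at the percent of all 16167 genes tested. Members lay beyond the marks on the right for each step in time, and beyond the marks on the left for both clones against WT at 6 h, where the spike-in scale puts all members lower. The choice of members on WT 9 h levels builds in a lean to that side.

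Timing was summarised as the share of the rise from 0 h to 9 h that was present at 3 h and at 6 h. At 3 h the median share was 32.0% in KO1, 28.5% in KO2 and 24.7% in WT. At 6 h the shares were 80.3%, 79.1% and 75.7%. The rule asked for a low WT level at 0 h and a high one at 9 h, which by itself tends to lower the WT shares. The gap between WT and the clones is therefore not read as a difference in timing. The quartiles at 3 h were 12.3% and 61.2% in KO1 and 9.90% and 55.4% in KO2, so the spread among members was wider than the gaps between genotypes.

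The latest members were led by Gbp2b, Nbl1, Slc29a4, Ces2f and Dgat2. Dpysl5, which encodes a dihydropyrimidinase-like protein of growing axons, was much like them. It had 0 counts in all 6 libraries of 0 h. At 9 h KO1 libraries held 18.1 and 14.7 CPM and KO2 libraries 19.7 and 18.9 CPM, against 3.54 and 4.46 CPM in KO1 and 4.49 and 4.40 CPM in KO2 at 6 h. WT held 9.57 and 9.37 CPM at 9 h, against 1.56 and 1.30 CPM at 6 h. Thus 24.3% of the rise in KO1, 23.0% in KO2 and 15.1% in WT was present at 6 h. The step between 6 and 9 h was 1.93 ± 0.17 on the log2 scale in KO1 (SE, edgeR adjusted p = 8.7e-18) and 2.02 ± 0.16 in KO2 (edgeR adjusted p = 5.7e-20). Dgat2, the diacylglycerol acyltransferase that makes triglyceride, had 13.5 and 12.3 CPM in KO1 and 11.7 and 14.2 CPM in KO2 at 9 h, against 5.19 and 5.49 CPM in WT. Ces2f, a liver and gut carboxylesterase, had 19 and 18.5 CPM in KO1 and 23.0 and 22.1 CPM in KO2, against 7.59 and 6.66 CPM in WT. Ces2e, also a member, is a close relative, and counts of the pair could share or lose reads.

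The earliest members were Nfe2l3, Slc5a5, Mpig6b, Trnau1ap and Smagp. Nfe2l3, a CNC-family basic leucine zipper factor, had 9.27 and 9.37 CPM at 3 h, 4.40 and 6.47 CPM at 6 h and 3.25 and 3.41 CPM at 9 h in KO1. KO2 held 8.20 and 10.9, 5.48 and 6.55, and 3.25 and 2.07 CPM, and WT 7.06 and 7.47, 7.97 and 10.1, and 5.99 and 5.86 CPM. Group means were highest at 3 h in the clones and at 6 h in WT. The 9 h level was below the 6 h level by a log2 of -0.81 ± 0.21 in KO1 (SE, edgeR adjusted p = 0.00095) and -1.27 ± 0.22 in KO2 (edgeR adjusted p = 3.5e-07). Mpig6b, an inhibitory receptor of megakaryocytes and platelets, had at least 9.85 CPM in each clone library at 3 h and had 5.74 and 6.25 CPM in KO1 and 7.78 and 6.41 CPM in KO2 at 9 h. Its exons overlap in part those of Ly6g6c, another member on the opposite strand. On chromosome 17 Mpig6b covers 35281669-35285160 and Ly6g6c 35284364-35289026. Counting took no account of strand, so reads of the shared stretch cannot be told apart.

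Tlcd2 and Cd79a were far above their 0 h level by 3 h and highest at 6 h in each genotype. Tlcd2, a membrane protein of the TLC domain family, had 30.5 and 31.4 CPM at 3 h, 60.5 and 63.4 CPM at 6 h and 53.6 and 49.4 CPM at 9 h in KO1. KO2 held 25.9 and 23.4, 50.3 and 53.7, and 47.4 and 46.7 CPM, and WT 35.7 and 31.5, 57.9 and 58.7, and 53.8 and 56.6 CPM. No 9 h library lay above the 6 h libraries of its genotype. Its exons overlap the Mir22 host gene, so its counts may hold reads of that transcript. Cd79a, the alpha chain of the B cell receptor complex, had 15.6 and 13.9 CPM in KO1 and 11.8 and 12.3 CPM in KO2 at 3 h, against 14.6 and 14.2 CPM in WT. At 0 h its libraries had 1 and 0, 3 and 1, and 4 and 4 counts in that order of genotypes. Of 9 lymphoid markers 3 could be tested, Cd79a, Cd79b and Nkg7, and all 3 were higher at 9 h than at 0 h in both clones, Cd79b by a log2 of 0.76 in KO1 and 1.24 in KO2 and Nkg7 by 1.15 in KO1 and 1.23 in KO2. Cd4, Cd8a and Ms4a1 had 0 CPM in all groups, and the sum of the 9 markers ran from 10.0 to 40.6 CPM in KO1, 9.44 to 43.4 CPM in KO2 and 22.7 to 71.4 CPM in WT. Markers near 0 at 0 h could be tested only if later libraries lifted them past the filter, which favours higher calls. The part of these markers in the Cd79a result was not tested.

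On the TMM scale the clones differed from WT at 6 h in both directions, more often downwards, and on the spike-in scale only downwards. KO1 was higher for 14 members and lower for 43 (18.4% and 17.4% of all genes), and KO2 was higher for 16 and lower for 33 (17.5% and 16.8%). Both clones shared 11 higher and 29 lower, with 0 opposite, and they were compared with the same WT libraries. The share of all genes called alike in both clones cannot exceed the shares of either clone and is not given here. The median log2 difference was -0.29 in KO1 and -0.18 in KO2, against -0.02 and -0.00 over all genes. The members were chosen for a high level in WT at 9 h, and the 6 h WT libraries came from the same cells, so a lean towards lower in the clones is built into the choice. The counts also leaned on single libraries: without WT 6 h replicate 2, KO1 was lower for 24 and KO2 higher for 9 and lower for 21. Without KO1 6 h replicate 2, KO1 was higher for 9, and without KO2 6 h replicate 2, KO2 was lower for 20. DESeq2 called 26 lower in KO1 and 19 in KO2. At 3 h fewer differed: 12 higher and 13 lower in KO1 (20.1% and 16.7%), and 14 higher and 17 lower in KO2 (21.1% and 17.6%). KO1 was lower for 7 without KO1 3 h replicate 1, for 6 without WT 3 h replicate 1 and for 8 by DESeq2. KO2 was higher for 9 without KO2 3 h replicate 2 or WT 3 h replicate 1 and for 8 without WT 3 h replicate 2, and lower for 10 without either KO2 3 h library.

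The 11 members higher in both clones at 6 h were Ces2f, Ckmt1, Csf1r, Dgat2, Dpysl5, Exoc3l2, Marc1, Nectin4, Robo3, Slc29a4 and Slc4a11. Csf1r, the macrophage growth factor receptor, had 15.7 and 16.8 CPM in KO1 and 12.2 and 11.9 CPM in KO2 at 6 h, against 8.41 and 7.29 CPM in WT, without overlap. Its log2 difference was 0.99 ± 0.13 in KO1 (SE, edgeR adjusted p = 5.4e-10) and 0.52 ± 0.14 in KO2 (edgeR adjusted p = 0.0013), and the KO2 call was lost without WT 6 h replicate 2. Its exons overlap Hmgxb3. Of 9 macrophage markers 5 could be tested, and at 6 h 2 were higher (Csf1r and Cd14) and 3 lower (Adgre1, Lyz2 and Cd68) in KO1 than in WT, and 1 higher and 3 lower in KO2. Between 0 and 9 h 4 of the 5 were higher and 1 lower in both clones. Adgre1 and Lyz2 were lower in the clones than in WT at 6 h, at 15.5 CPM and 5.28 CPM in KO1 and 6.48 CPM and 1.10 CPM in KO2, against 80.8 CPM and 33.7 CPM in WT, while Marco, C1qa and C1qb had 0 CPM throughout. Their part in the Csf1r result was not tested. Exoc3l2, related to a subunit of the exocyst, had 15.0 and 13.1 CPM in KO1 and 10.6 and 10.1 CPM in KO2, against 5.85 and 5.57 CPM in WT. Dpysl5 differed by 1.42 ± 0.26 in KO1 (SE, edgeR adjusted p = 3.4e-06) and 1.53 ± 0.25 in KO2 (edgeR adjusted p = 2.8e-07). Dgat2 differed by 1.55 ± 0.27 in KO1 and 1.0 ± 0.29 in KO2, and its KO2 call was lost without WT 6 h replicate 2.

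The 29 members lower in both clones at 6 h included Trim71, Ankrd7, Themis2, Nbl1, Cldn4 and Cd79a. Trim71, an RNA-binding ubiquitin ligase of early embryos, had 2.44 and 2.75 CPM in KO1 and 0.932 and 0.927 CPM in KO2, against 5.04 and 5.10 CPM in WT. Its log2 difference was -1.03 ± 0.25 in KO1 (SE, edgeR adjusted p = 0.00054) and -2.54 ± 0.30 in KO2 (edgeR adjusted p = 5.8e-12). Ankrd7, an ankyrin repeat gene, had 0 counts in every 0 h library and 2.99 and 2.63 CPM in KO1 and 3.32 and 3.01 CPM in KO2 at 6 h, against 5.04 and 6.88 CPM in WT. Themis2, a signalling adaptor of B cells and macrophages, had 2.32 CPM in both KO1 libraries and 3.20 and 2.32 CPM in KO2, against 5.79 and 4.33 CPM in WT. Its KO2 call was lost without WT 6 h replicate 1 or KO2 6 h replicate 2. Nbl1, a secreted antagonist of bone morphogenetic proteins, was lower by log2 -1.26 ± 0.40 in KO1 and -1.70 ± 0.41 in KO2, and the KO1 call was lost without KO1 6 h replicate 2 or WT 6 h replicate 2, and by DESeq2. Cldn4, a tight junction claudin, had 4.46 and 4.09 CPM in KO1 and 4.78 and 4.69 CPM in KO2, against 6.35 and 7.65 CPM in WT, and both calls were lost without WT 6 h replicate 2. Of 7 epithelial markers, Cldn4 and Cldn7 could be tested. Cldn7 had 0.344 CPM in KO1 and 0.428 CPM in KO2 at 9 h, against 0.0926 CPM in KO1 and 0 CPM in KO2 at 0 h, and was called higher in KO2 (edgeR adjusted p = 0.00084) and not in KO1 (edgeR adjusted p = 0.12). Krt8 and Krt18 had 0 CPM in every group, and their part in the Cldn4 result was not tested. For Cd79a the log2 difference was -0.32 ± 0.10 in KO1 and -0.35 ± 0.10 in KO2, and the KO1 call was lost without KO1 6 h replicate 2 or WT 6 h replicate 2, and by DESeq2.

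Members that came late were more often above WT in the clones, on the TMM scale. To keep libraries apart, timing was taken from one clone and the comparison with WT from the other. Of the 41 members that KO1 called higher at 9 h than at 6 h, 15 were higher and 4 lower in KO2 than in WT at 6 h, with a median log2 difference of 0.27. Of the 62 that KO1 did not call, 1 was higher and 22 were lower (median -0.30), and of the 13 that fell in KO1, 0 were higher and 7 lower (median -0.34). With the clones exchanged, 13 of 43 late-rising members were higher and 5 lower in KO1 than in WT (median 0.20). Then 1 of 58 was higher and 29 were lower (median -0.46), and 0 of 15 were higher and 9 lower (median -0.45). Across the 116 members Pearson's r between the 9 h to 6 h change of KO1 and the 6 h difference of KO2 from WT was 0.459 and Spearman's rho 0.424; exchanged, they were 0.503 and 0.462. These are correlations across genes, which are not independent replicates. All genes tested leaned the same way: among those that KO1 called higher from 6 to 9 h, 29.4% were higher and 15.6% lower in KO2 than in WT, and among those that fell, 20.1% were higher and 33.1% lower. Among all genes that KO1 did not call, 12.8% were higher and 11.8% lower in KO2 than in WT. With the clones exchanged, these shares were 12.4% and 13.8%. A late rise going with a higher level was thus not particular to the members. The lean to lower among members not called was not seen over all genes. All genes were not chosen for a high WT level at 9 h, and that choice builds such a lean into the members. The contrast is therefore no result about the members.

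**Figure D4:**
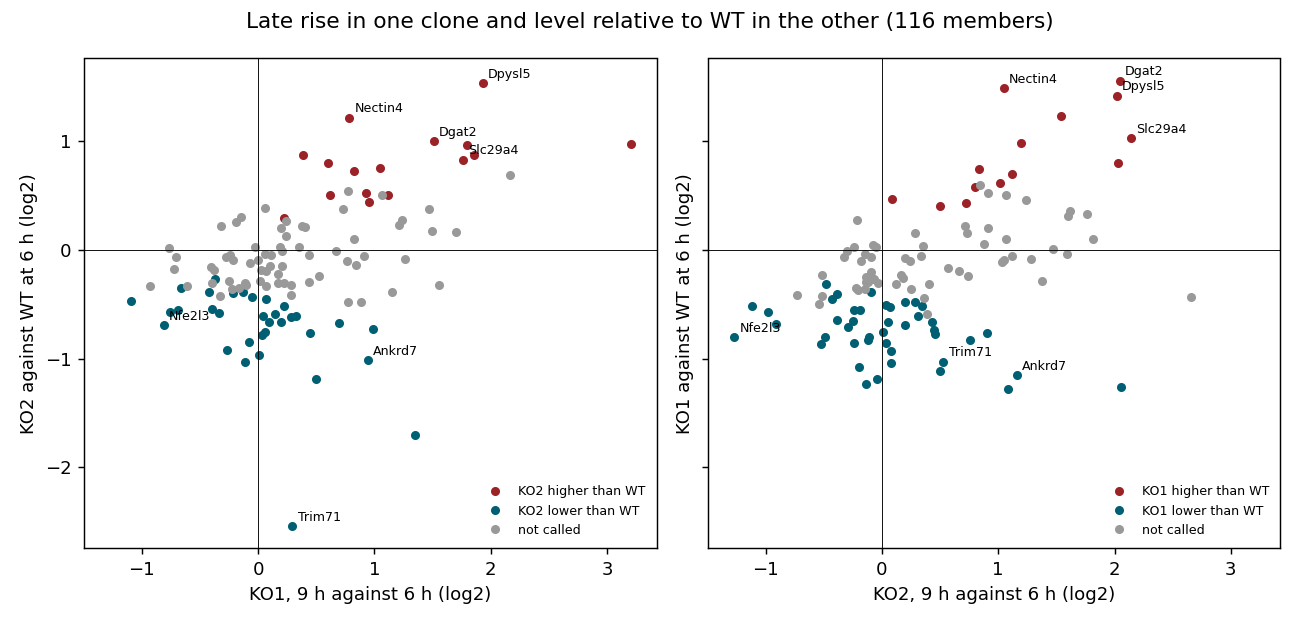
Log2 change between 6 and 9 h in one clone (x axis) against the log2 difference of the other clone from WT at 6 h (y axis), a point per member, coloured by the call against WT, on the TMM scale (on the spike-in scale all members are lower than WT). Of the 41 members that KO1 called higher at 9 h, 15 were higher and 4 lower in KO2 than in WT; Dpysl5, Nectin4, Dgat2 and Slc29a4 lie at the upper right and Trim71, Ankrd7 and Nfe2l3 below 0.

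At 9 h, where WT levels chose the members, 35 members had a higher mean CPM in KO1 than in WT and 81 a lower one. In KO2 44 were above and 72 below WT. The median ratio of clone to WT was 0.819 for KO1 and 0.856 for KO2. Members over 2-fold above WT numbered 4 in KO1 and 10 in KO2, and those over 2-fold below numbered 10 and 4.

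On the TMM scale, fewer members differed between the clones than from WT. KO2 was higher than KO1 for 3 members and lower for 1 at 0 h (7.29% and 9.55% of all genes), for 3 and 3 at 3 h (5.61% and 6.34%), for 7 and 5 at 6 h (5.59% and 7.82%) and for 5 and 2 at 9 h (4.89% and 7.54%). Single libraries moved the small counts: they fell to 1 higher without KO1 0 h replicate 2 and 0 lower without that or KO2 0 h replicate 2 at 0 h, to 1 higher without KO1 3 h replicate 1 and 1 each way without KO2 3 h replicate 2 at 3 h, to 4 higher without either KO1 6 h library at 6 h, and to 3 higher without KO1 9 h replicate 2 at 9 h. On the spike-in scale KO2 was lower for 97, 109 and 116 members at 3, 6 and 9 h. The median log2 difference of all genes on that scale was -0.97, -1.14 and -1.67 at these times, so the whole libraries shifted. There Art4 and Armcx4 turned to lower in KO2 at 9 h, at log2 -0.61 and -0.84. On the TMM scale Art4, an ADP-ribosyltransferase that carries the Dombrock blood group in humans, was higher in KO2 at each time. It had 26.2 and 25.4 CPM in KO2 at 9 h, against 11.7 and 12.6 CPM in KO1, a log2 difference of 1.06 ± 0.13 (SE, edgeR adjusted p = 2.6e-11). Armcx4, an armadillo repeat gene of the X chromosome, had 12.3 and 12.1 CPM in KO2, against 7.47 and 6.07 CPM in KO1, and its call was lost without KO1 9 h replicate 2. Slc4a11, a transporter of the corneal endothelium, had 17.5 and 18.3 CPM in KO2, against 22.6 and 23.3 CPM in KO1. Its log2 difference was -0.38 ± 0.13 (SE, edgeR adjusted p = 0.027), and leaving out any of the 4 libraries, or using DESeq2, ended the call.

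The rise over 9 h itself differed between the clones for 2 members, both with the smaller rise in KO2; 0 had the larger one there (4.21% and 3.3% of all genes). Those were Gbp2b, an interferon-inducible guanylate-binding GTPase, and Trim71. Both calls were lost without KO1 0 h replicate 2, that of Gbp2b without KO2 0 h replicate 1 (log2 -1.25) and that of Trim71 without KO2 0 h replicate 2 (log2 -2.45), and DESeq2 called neither. Gbp2b had 46 and 32 counts in KO2 at 0 h, against 8 and 6 in KO1, and 19.5 and 17.9 CPM in KO2 at 9 h, against 10.1 and 9.97 CPM in KO1. Gbp2b was already above 0.5 CPM in KO2 at 0 h, at 2.80 and 1.94 CPM. A list of 21 interferon-stimulated genes summed to 2472 CPM in KO2, against 449 CPM in KO1 and 514 CPM in WT at 0 h, and 18 of its 19 tested genes were higher and 0 lower in KO2 than in KO1 at 9 h. Their part in the Gbp2b result was not tested. Gbp2b has close relatives in the same family, whose counts could share or lose reads.

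By role, assigned from general knowledge once the members were known, 16 members were cell surface, adhesion or matrix proteins, of which 7 were higher and 1 lower at 9 h than at 6 h in both clones. Over all 116 members these counts were 38 and 10. Over all genes 19.8% were higher and 19.9% lower in KO1 alone, and 20% and 21.5% in KO2 alone. Shares of all genes called alike in both clones are not given here, so the role counts are set only against the members. Robo3, an axon guidance receptor, had 10.9 CPM in KO1 and 13.7 CPM in KO2 at 9 h, against 6.69 CPM in WT, as group means. Of 9 receptors, cytokines and hormones, 5 were higher and 0 lower at 9 h than at 6 h in both clones; Il6ra, the interleukin-6 receptor, had 1.43 CPM at 6 h and 6.94 CPM at 9 h in KO1, and 1.89 and 6.87 CPM in KO2. Metabolic enzymes numbered 12, with 6 higher and 1 lower at this step, and 4 of them, Ces2f, Ckmt1, Dgat2 and Marc1, were higher in both clones than in WT at 6 h, where 11 of all 116 were. Of 8 genes of blood and immune cells, 3 were higher and 3 lower at 9 h than at 6 h in both clones. Among these 8, 4 were lower in both clones than in WT at 6 h, where 29 of all 116 were. Over all genes 18.4% were higher and 17.4% lower in KO1 than in WT at 6 h, and 17.5% and 16.8% in KO2, each clone taken alone. The 10 transcription factors and cofactors included Lhx9 and Tbx6, of developing limb and mesoderm. Lhx9 had 11.1 CPM in KO1 and 12.9 CPM in KO2 at 9 h, against 11.4 CPM in WT, and Tbx6 had 8.53 CPM in KO1 and 8.40 CPM in KO2, against 7.56 CPM in WT. Of the 10, 0 were higher in both clones than in WT at 6 h.

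Germ-cell and early-embryo genes numbered 7. Dazl, an RNA-binding protein of germ cells, had 15.1 and 14.1 CPM in KO1 and 16.7 and 16.7 CPM in KO2 at 9 h, against 13.8 and 13.6 CPM in WT. The clones did not overlap with WT there, and at 6 h the log2 differences of 0.36 ± 0.21 in KO1 and 0.38 ± 0.20 in KO2 did not pass the test. Dazl and Zscan10 also stood in a list of 33 pluripotency, embryo and germline genes, of which 9 could be tested: 7 were higher and 2 lower at 9 h than at 0 h in each clone. Over all genes 42.2% were higher and 38.3% lower in KO1, and 42% and 38.8% in KO2. The nectin, cadherin and junction list of 32 genes had 11 testable, with 7 higher and 1 lower in KO1 and 8 higher and 1 lower in KO2. Neuronal genes, none of them members, had 10 of 30 testable, with 9 higher in KO1, 8 in KO2 and 0 lower in either. Nucleoside and monoamine transporters, which include Slc29a4, gave 2 higher and 3 lower of 7 in KO1 and 2 and 2 in KO2. Of 38 testable p53 targets, 0 of which were members, 30 were higher and 5 lower in KO1 and 31 and 7 in KO2. Of 23 immediate early genes, 13 were higher and 6 lower in KO1 and 15 and 4 in KO2. Median log2 changes over these 6 lists ran from -0.39 to 3.44. A listed gene or marker near 0 at 0 h passed the filter on low counts only through its later libraries. That by itself favours higher calls among the testable genes. The junction list also counts the members Nectin4 and Cldn4, and the germline list Dazl and Zscan10, which were chosen for rising in WT. These counts are therefore a description and are not a result about the lists.

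An expressed neighbour upstream, which the rule did not use, was more frequent among members than in the other sets, though most members had none nearby. A gene on the same strand with at least 5 CPM at WT 0 h ended within 5000 bases upstream of 34 of the 116 members (29.3%). The same held for 1.68% of the 7486 genes that stayed silent, for 10.4% of the 9181 named protein-coding genes with at least 5 CPM at WT 0 h and for 7.42% of all named ones. The median distance to such an upstream gene was 20026 bases for members and 402728 bases for the genes that stayed silent. On the downstream side 17 members (14.7%) had one within 5000 bases, against 2.19%, 10.6% and 7.08% of the same sets. Examples were Tmem95, 208 bases after Kctd11, Tnfrsf25, 534 bases after Plekhg5, Ly6g5b, 768 bases after Csnk2b, and Tbx6, 969 bases after Ypel3. The distances come from the files' exon coordinates on GRCm39.

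**Figure D5:**
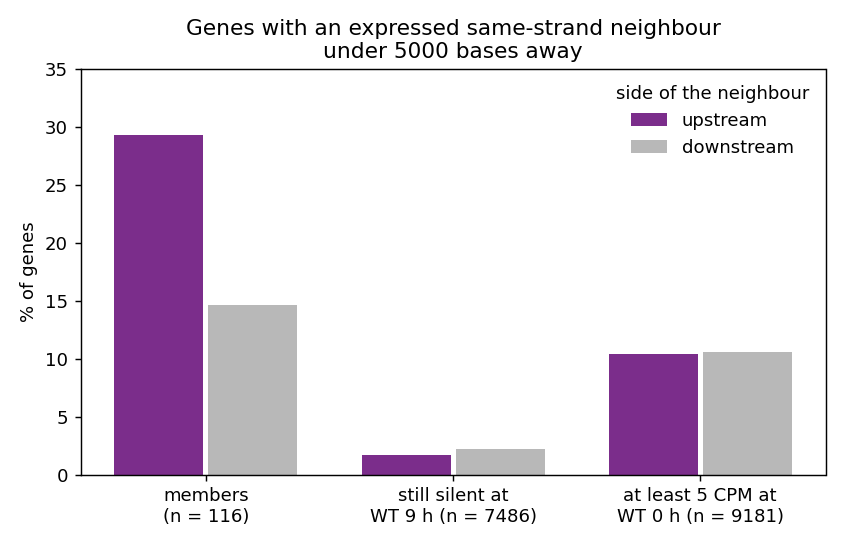
Percent of genes with an expressed neighbour (at least 5 CPM at WT 0 h) on the same strand under 5000 bases away, for the 116 members, the 7486 genes still silent at WT 9 h and the 9181 genes expressed at WT 0 h, upstream and downstream. For members the upstream bar is 29.3% and the downstream bar 14.7%; in the other sets both sides are alike.

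Members with a close upstream gene also appeared earlier in the median. Their median share of the 9 h rise, as a mean over both clones, was 51.4% at 3 h and 96.4% at 6 h (n = 34), against 23.6% and 76.9% for the other 82. Single members went both ways. Among the earliest, Trnau1ap starts 2381 bases after Rcc1 and Smagp 4137 bases after Bin2, while Mpig6b lies 50012 bases and Nfe2l3 over 1000000 bases from an upstream expressed gene. Among the latest, Nbl1 lies 8821 bases, Slc29a4 21924, Dgat2 36365, Dpysl5 36734, Gbp2b 44698 and Ces2f 348330 bases from theirs, and Nectin4 10845 bases. Hr, picked out after its values were seen, had 37.7% of its rise at 6 h and lies 3279 bases from Reep4. Reads that run on past the end of an upstream gene were not looked for, since the tables hold sums over exons, and their part in these values was not tested. Exons of 37 members (31.9%) overlapped another gene, as did those of 18.6% of still-silent and 29.8% of all named genes, and in these the unstranded counts may hold reads of the partner. Leaving them out gave 79 members.

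In structure the members were close to still-silent genes in exon length and had more exon blocks. Their median exon length was 2882 bases in 9 exon blocks over a span of 15502 bases, beside 2799 bases, 5 blocks and 11168 bases for genes that stayed silent. All named protein-coding genes had medians of 3788 bases, 8 blocks and 18953 bases. Chromosome 9 held 12 members (10.3%, against 5.72% of named protein-coding genes), chromosome 7 held 11 (9.48%, against 9.52%) and chromosome 3 held 10 (8.62%, against 4.63%). Neighbouring members within 100000 bases were the chromosome 17 genes Mpig6b, Ly6g6c and Ly6g5b, and the carboxylesterases Ces2e and Ces2f, which lie 12684 bases apart.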

How the data were processed

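Polyadenylated RNA of 24 libraries was measured. The authors deposited raw counts of read pairs per gene, made by featureCounts 1.6.3 on read pairs, over exons, ignoring strand, with Ensembl release 105 of GRCm39 plus spike-in sequences, per the file headers. The submitters' processing notes also name STAR and DESeq2, whose versions are not given in the sources used here. Names and biotypes came from GENCODE M21, which named 52081 of 55414 identifiers. Identifiers it did not name stayed in the totals and tests. The tables held no summary entries such as unassigned reads.

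CPM used each library's summed gene counts. One edgeR 4.0.16 quasi-likelihood model with 12 groups, TMM scaling and filterByExpr (minimum count 10, 16167 genes) gave log2 fold changes, standard errors and Benjamini-Hochberg adjusted p-values, called under 0.05. It was tested on simulated data. DESeq2 1.42.0, other scales, no filter, single groups, a replicate block and leaving out each library were alternatives. Replicates of a group differed by more than counting noise. Floors of 3 counts cover counting error only. The members, gene lists and tests were chosen with earlier results of these data known. Named were the 3 examples, the 10 highest at KO 9 h, the 5 earliest and 5 latest, up to 4 each way against WT at 6 h, up to 3 each way between clones, list members and threshold neighbours.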

Additional observations from a re-analysis of the deposited data

Results flagged for a closer look

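The rise over 9 h differed between the clones for Gbp2b and Trim71 by a test of the difference itself. For Gbp2b the log2 rise in KO2 was smaller than in KO1 by -1.54 ± 0.44 (SE, edgeR adjusted p = 0.015). KO2 had 46 and 32 counts at 0 h, against 8 and 6 in KO1. The call was lost without KO1 0 h replicate 2, where the difference was -1.31, and without KO2 0 h replicate 1, where it was -1.25. For Trim71 the difference was -2.95 ± 0.75 (SE, edgeR adjusted p = 0.0044), with 1.29 and 1.59 CPM in KO2 at 9 h, against 3.32 and 3.53 CPM in KO1. That call was lost without KO1 0 h replicate 2 (-2.65) and without KO2 0 h replicate 2 (-2.45). DESeq2 called neither. No cause was tested.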

How the results depend on the processing

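Of the alternatives to counts and medians, 255 stayed within 1.5 times and 84 did not. Calls of single genes kept their side in 890 cases, were lost in 24, gained in 2 and turned round in 19, all of the last on the spike-in scale. The cause was not tested.

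On the spike-in scale KO1 at 9 h against 6 h had 74 higher and 1 lower, and KO2 7 lower. The median of all genes rose by a log2 of 0.56 in KO1 at this step. KO1 against WT had 0 higher and 115 lower at 3 h and 0 and 116 at 6 h, and KO2 the same counts. The medians of all genes at 3 h and 6 h were -4.71 and -4.74 in KO1 and -5.68 and -5.87 in KO2. KO2 against KO1 had 5 higher and 13 lower at 0 h, and 0 higher with 97, 109 and 116 lower at 3, 6 and 9 h. The medians of all genes between the clones were -0.47, -0.97, -1.14 and -1.67 at 0, 3, 6 and 9 h. The difference in rise had 1 higher and 32 lower, and the median rise was 5.41 in KO1 and 4.54 in KO2. There the 6 h differences from WT in KO1 and KO2 were -3.24 and -4.66 for Nectin4, -4.30 and -5.65 for Zscan10, -3.70 and -5.03 for Slc29a4, -3.49 and -5.11 for Exoc3l2, -3.74 and -5.35 for Csf1r, -3.16 and -4.86 for Dgat2, -3.30 and -4.32 for Dpysl5 and -4.37 and -5.49 for Dazl. KO2 against KO1 at 9 h gave -0.80 for Gbp2b, -0.61 for Art4 and -0.84 for Armcx4. With summed gene counts as scale, the medians were 5.50 in KO1 and 5.87 in KO2 and KO2 had 8 lower at 9 h against 6 h.

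DESeq2 gave 9 lower for KO2 at 9 h against 6 h, 8 for KO1 against WT at 3 h, 26 and 19 for KO1 and KO2 at 6 h, 0 and 1 for KO2 against KO1 at 0 h and 9 h, and 0 for the difference in rise. A fit of only the groups compared gave 9 higher for KO2 against WT at 3 h, 1 higher and 0 lower for KO2 against KO1 at 0 h, 11 higher at 9 h and 1 higher in rise. Without a filter KO2 had 0 lower against KO1 at 0 h. With the 37 overlapping members left out, the counts were 69 higher for WT at 6 h against 3 h, 26 higher for KO1 and 9 lower for KO2 at 9 h against 6 h, 10 lower for KO2 against WT at 3 h, 0, 2 and 1 lower for KO2 against KO1 at 0, 6 and 9 h, and 1 lower in rise. Fewer members are counted there by construction. The set held 69 members under 0.25 CPM and 178 under 1 CPM at WT 0 h, and 43 with at least 10 CPM at WT 9 h.

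Leaving out 1 library, with the lone library assumed to vary like the others, gave 9 to 12 lower for KO2 at 9 h against 6 h. KO1 against WT had 6 to 10 lower at 3 h, and 9 to 15 higher and 24 to 38 lower at 6 h. KO2 against WT had 8 to 12 higher and 10 to 14 lower at 3 h, and 9 to 16 higher and 20 to 24 lower at 6 h. KO2 against KO1 had 1 to 5 higher and 0 to 2 lower at 0 h, 1 to 3 each way at 3 h, 4 to 6 higher at 6 h, and 3 to 5 higher and 1 to 2 lower at 9 h. The difference in rise had 0 to 1 higher and 0 to 2 lower.

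Replicate numbers did not pair the libraries: the correlation of same-numbered deviations over 66 pairs of groups had a median of 0.0135 and ran from -0.0233 to 0.155. With a replicate block the difference in rise had 1 higher, and no other count moved by over 1.5 times.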
